A study of Mus musculus with 8 samples.

Results

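The TGF-beta, activin and BMP genes described here were 10 of the 34844 gene names on a mouse expression array, carried by 16 of its 55681 probes: the ligands Tgfb1, Tgfb2, Tgfb3, Inhba, Bmp2 and Bmp4, the receptors Tgfbr1 and Tgfbr2, the intracellular inhibitor Smad7, and Tgfbi. Probes were matched by gene name, and 6 of the genes had 1 probe, 3 had 2 and 1 had 4. RNA was measured on 8 one-colour Agilent arrays, in 4 groups of 2, all from B6 mice with the transgene Tg(CAG-DsRed*MST)1Nagy, a red fluorescent protein gene under the broadly active CAG promoter, which the controls carry too. LPS macrophages and IL-4 macrophages were bone marrow cells grown for 7 days with macrophage colony-stimulating factor (M-CSF) and exposed to lipopolysaccharide (LPS, a bacterial cell wall component) or interleukin-4 (IL-4, a T helper cytokine) for 24 hours. Colony cells were bone marrow cells kept for 7 days on an endothelial monolayer in a medium for blood stem cells. Control macrophages were grown as the LPS and IL-4 ones and left in control medium. Between colony cells and macrophages the substrate and the medium differ together, and the labels give neither the source of the endothelial cells nor whether they were removed. Nothing in the labels tells separate animals or cultures apart within a group, so p-values measure only the spread between these samples, which may be technical.

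Ligands of this family are secreted dimers that bring together type I and type II receptor kinases on the cell surface. The TGF-betas signal through TGFBR2 and TGFBR1, activins and bone morphogenetic proteins (BMPs) through related receptors, and the receptors phosphorylate Smad proteins that enter the nucleus. TGF-betas are stored outside the cell in a latent complex and must be released before they act. In macrophages TGF-beta is best known for restraining inflammatory cytokine production, and activin A, a dimer of the product of Inhba, is known to be made on inflammatory stimulation. SMAD7 blocks the type I receptors and is itself a Smad target, and Tgfbi codes for a matrix adhesion protein named for its induction by TGF-beta.

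The probes of Tgfb1 and Tgfb2 are shown because these ligands moved in opposite directions in colony cells although their probes share sequence. The Tgfb1 probe, printed on 10 spots, lies at chr7:26489877-26489936 on the plus strand and begins at base 1955 of its RefSeq transcript. The Tgfb2 probe used for the gene lies at chr1:188449333-188449392 on the minus strand and begins at base 2397. Coordinates are on build mm9, as the array files give them, and no exon annotation of it was used. In the best ungapped alignment 28 of 41 overlapping bases were identical (68.3%), and these are in capitals.
Tgfb1 probe: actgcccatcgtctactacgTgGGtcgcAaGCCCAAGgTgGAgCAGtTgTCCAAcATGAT
Tgfb2 probe: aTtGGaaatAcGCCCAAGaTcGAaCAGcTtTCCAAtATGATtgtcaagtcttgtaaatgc

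RefSeq promoter windows, 250 bases before to 50 after a gene's start on build GRCm38.p6, were matched for 7 of the 10 genes in 8 windows. Those of Tgfb1, at chr7:25686752-25687051 on the plus strand, Tgfb2, at chr1:186705940-186706239 on the minus strand, and Inhba, at chr13:16011601-16011900 on the plus strand, are shown because Tgfb1 fell and Tgfb2 rose in colony cells and Inhba rose there and with LPS. Capitals mark every match, on either strand, to TATAAA or to the GC box GGGCGG.
Tgfb1 promoter: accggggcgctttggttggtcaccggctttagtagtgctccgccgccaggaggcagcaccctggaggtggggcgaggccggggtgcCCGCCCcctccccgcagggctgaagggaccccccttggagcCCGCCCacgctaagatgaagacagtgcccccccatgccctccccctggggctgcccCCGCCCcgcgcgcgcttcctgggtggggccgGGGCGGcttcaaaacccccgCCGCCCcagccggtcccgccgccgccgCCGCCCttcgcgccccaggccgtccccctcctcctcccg
Tgfb2 promoter: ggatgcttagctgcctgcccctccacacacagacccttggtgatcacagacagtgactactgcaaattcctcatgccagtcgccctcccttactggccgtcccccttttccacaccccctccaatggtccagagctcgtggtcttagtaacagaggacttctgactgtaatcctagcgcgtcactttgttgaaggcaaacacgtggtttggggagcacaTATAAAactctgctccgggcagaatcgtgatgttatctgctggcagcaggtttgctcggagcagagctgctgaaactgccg
Inhba promoter: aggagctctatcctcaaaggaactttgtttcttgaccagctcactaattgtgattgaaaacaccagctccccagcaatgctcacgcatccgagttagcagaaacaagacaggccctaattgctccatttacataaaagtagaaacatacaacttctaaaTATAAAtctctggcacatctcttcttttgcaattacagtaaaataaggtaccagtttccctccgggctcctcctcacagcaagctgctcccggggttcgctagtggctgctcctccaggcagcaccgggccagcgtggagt

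The Tgfb1 window was 77% G or C and held 6 GC boxes and no TATAAA. The Tgfb2 window was 54.3% G or C, with TATAAA starting 31 bases before the start and no GC box. The Inhba window was 47.7% G or C, with TATAAA starting 91 bases before the start. TATAAA was found in 2 of the 8 windows and in 13.6% of 32851 promoter windows of the same length, and GGGCGG in 4 of 8 and in 35.7%. Of the 8 windows, 0 held TGANTCA (the AP-1 motif), TGACGTCA (the cyclic AMP response element), the NF-kB motif (GGG, any 2 bases, TTTCC) or GTCTAGAC (the Smad box), which occurred in 7.81%, 1.79%, 1.63% and 0.213% of all windows. No motif contains another, both strands were searched, and a match is a description of letters in the window.

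Signals are given as normalised signal, the background-subtracted brightness of a probe after each array was scaled so that its 75th percentile was 637 units. Levels of different probes are not comparable, so a gene is compared between arrays by 1 probe unless stated, and sums over marker lists are set mostly by their brightest probes. Over the arrays 62.4% to 72.2% of spots were well above background and none was saturated, and the correlation of replicate arrays was 0.986 to 0.997. The highest of those shares was that of LPS replicate 2, which had 105 spots marked uneven, against at most 5 on any other array. Of the 16 probes, 14 passed the filter, which asked for a signal well above background on each array of 1 group or more, 10 were well above background on all 8 arrays, and each of the 10 genes kept at least 1 probe. Log2 fold changes, with the SE, come from a limma model over 26504 genes. Calls are at an adjusted p (Benjamini-Hochberg, over all genes) under 0.05.

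**Figure D1:**
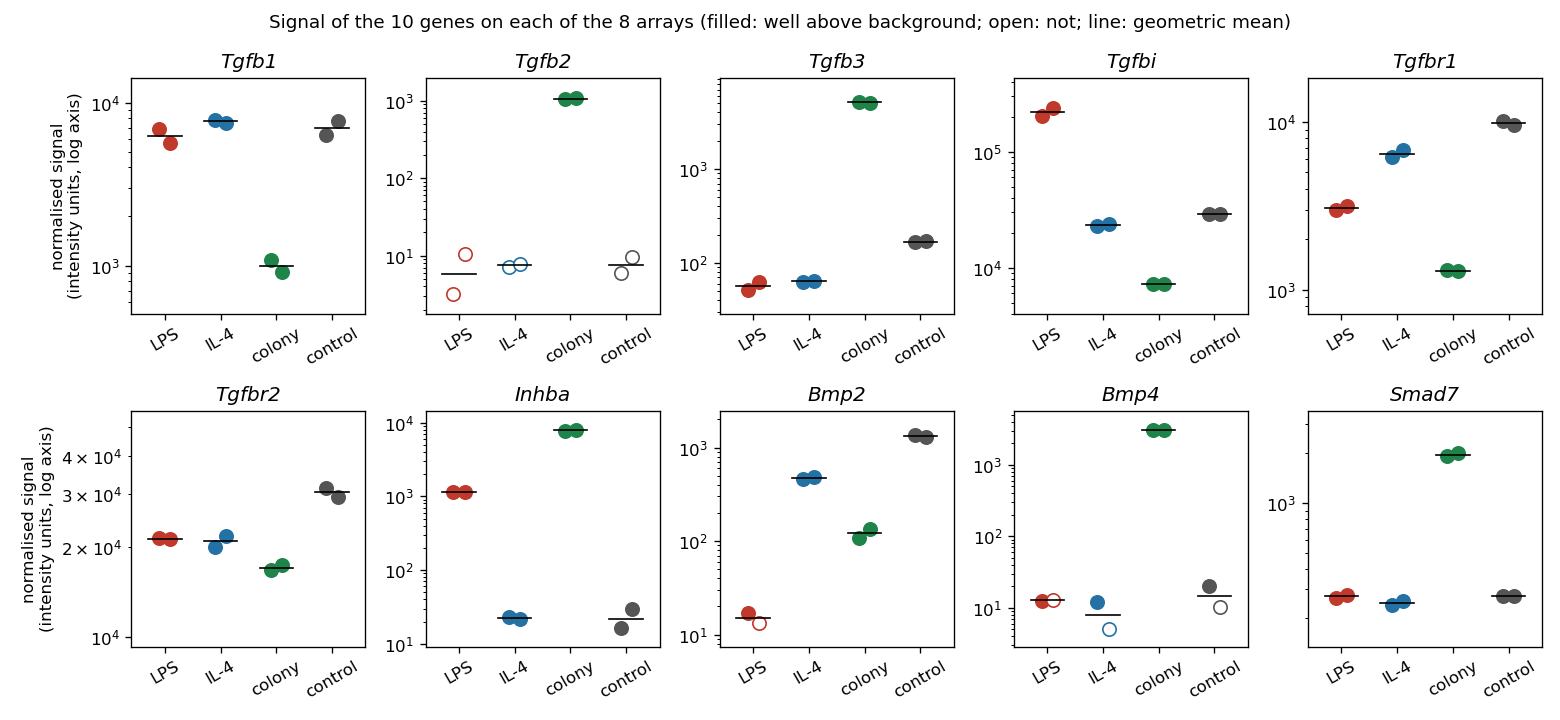
Normalised signal (intensity units, log axis) of each of the 10 genes on every array, by group, for the probe that stands for the gene; filled points are well above background and open points are not. Inhba lies between 1149 and 1159 in LPS macrophages and at 7808 and 7890 in colony cells, while Tgfb1 is at 1081 or less in colony cells and at 5618 or more on all other arrays.

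The 10 genes split evenly in colony cells: Tgfb2, Tgfb3, Inhba, Bmp4 and the inhibitor Smad7 were higher than in control macrophages, and Tgfb1, Tgfbi, Tgfbr1, Tgfbr2 and Bmp2 were lower. LPS raised Inhba and Tgfbi and lowered Bmp2, Tgfbr1, Tgfb3 and Tgfbr2. IL-4 lowered Tgfb3, Bmp2, Tgfbr1 and Tgfbr2. In number, 6 of the 10 genes were called in LPS macrophages (2 higher, 4 lower), where 54.7% of all genes tested were called (28.9% higher, 25.8% lower). With IL-4, 4 of 10 were called, where 19% of all genes were (9.87% higher, 9.18% lower). All 4 fell: 0 rose by limma, and 0 were higher at an unadjusted p under 0.05. In colony cells 10 of 10 were called, 5 higher and 5 lower, where 71.4% of all genes were (24.7% higher, 46.7% lower). Tgfb2 and Bmp4 passed the probe filter only through colony cells and could hardly be called lower there. The colony cell counts therefore do not compare evenly with those shares. The count for LPS was near the 54.7% of all genes called with LPS. Without LPS replicate 2 it was 7, the added gene being Tgfb2, by a probe not well above background in either group. Of all calls with LPS 52.9% were on the higher side. That share was 38.3% to 44.1% with another background removal (normexp) or with other scalings (quantile normalisation, median centring and the deposited table). The 3 comparisons share the control arrays.

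**Figure D2:**
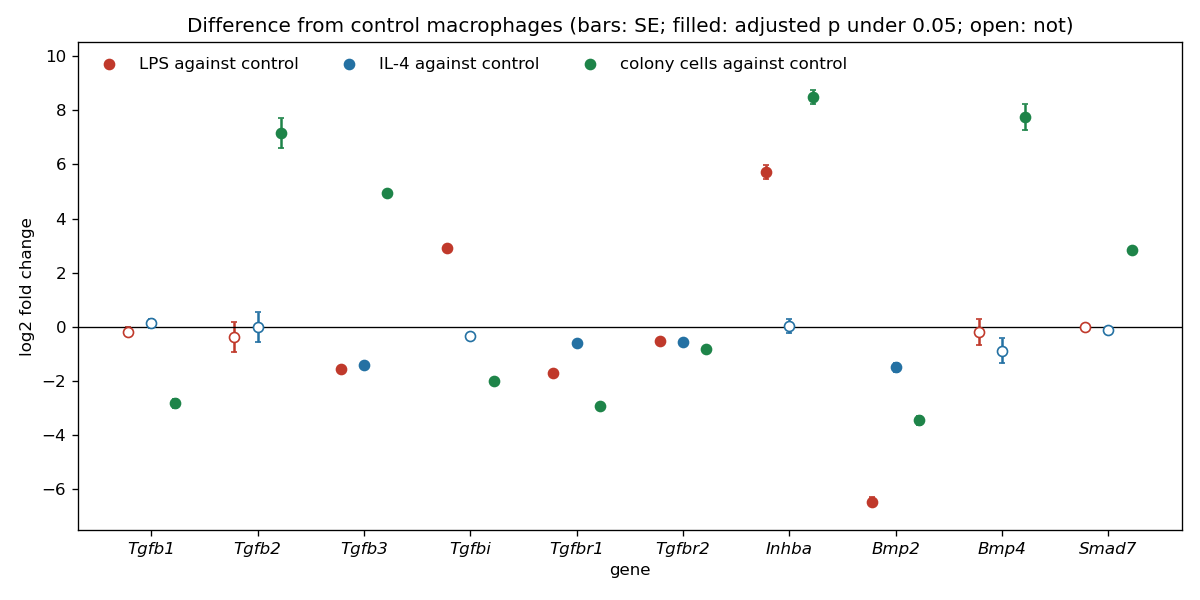
Log2 fold change against control macrophages for each gene (LPS, IL-4, colony cells, left to right in each gene; points, fitted values; bars, SE; filled, adjusted p under 0.05). Bmp2 after LPS is the lowest point at -6.46 and Inhba in colony cells the highest at 8.49; the Tgfb2 point in colony cells is a fitted value against controls not well above background.

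Tgfb1, the main TGF-beta isoform of blood cells, had 6898 and 5618 units in LPS macrophages, 7811 and 7525 in IL-4 macrophages, 1081 and 910.02 in colony cells, and 6349 and 7745 in control macrophages. The colony cell arrays were the lowest, while the LPS and the IL-4 values overlapped those of the controls. Tgfb1 fell by 2.82 on the log2 scale in colony cells (SE 0.16, adjusted p = 2.7e-05). The log2 difference was -0.17 with LPS (95% interval -0.56 to 0.22, adjusted p = 0.39) and 0.13 with IL-4 (-0.26 to 0.52, adjusted p = 0.64).

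Tgfb2, an isoform best known from epithelia and mesenchyme, was well above background with this probe only in colony cells, at 1055 and 1083 units. It had 3.18 and 10.4 units in LPS macrophages, 7.17 and 7.89 in IL-4 macrophages, and 5.94 and 9.48 in controls, none of them well above background. Colony cells were therefore at least 109.6-fold higher than controls, a bound set by the dimmest signals counted as above background (adjusted p = 1.1e-04). The other Tgfb2 probe, starting at base 4196 of the transcript, had 525 and 542 units in colony cells and 6.33 and 2.73 in controls, and it was well above background on LPS replicate 1, at 34.5 units, against 2.48 on LPS replicate 2. With background removed by normexp instead, the log2 difference of Tgfb2 in colony cells was 3.63 in place of 7.15, which is below that bound.

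Tgfb3, an isoform known from palate and lung development, was lower after both stimuli and much higher in colony cells. It had 51.7 and 62.2 units in LPS macrophages, 62.5 and 64.7 in IL-4 macrophages, 5114 and 5086 in colony cells, and 165.2 and 169.5 in control macrophages. None of the 3 groups overlapped the controls. The log2 differences were -1.56 with LPS (SE 0.10, adjusted p = 9.8e-05), -1.40 with IL-4 (SE 0.10, adjusted p = 8.8e-04) and 4.93 in colony cells (SE 0.10, adjusted p = 8.9e-07). LPS and IL-4 macrophages differed by 0.17 (IL-4 minus LPS, 95% interval -0.09 to 0.42, adjusted p = 0.22). That difference was called, with IL-4 higher, under median centring, in the deposited table, after quantile normalisation and without LPS replicate 2 (adjusted p = 0.028, 0.027, 0.0092 and 0.038).

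Inhba, which codes for the beta A subunit of activins and of inhibin A, rose both in LPS macrophages and in colony cells. It had 1159 and 1149 units in LPS macrophages, 23.0 and 21.9 in IL-4 macrophages, 7808 and 7890 in colony cells, and 16.3 and 29.3 in controls. The LPS arrays lay far above the controls and the colony cell arrays above both, while the IL-4 values lay between the 2 control values. Inhba rose by 5.72 on the log2 scale with LPS (SE 0.26, adjusted p = 2.8e-05), or 52.7-fold, and by 8.49 in colony cells (SE 0.26, adjusted p = 3.0e-06). With normexp these were 3.78 and 6.52.

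With IL-4 the difference of Inhba was 0.04 (95% interval -0.61 to 0.69, adjusted p = 0.95), and its direction rested on the controls. It was -0.39 without control replicate 1 (adjusted p = 0.042) and 0.46 without control replicate 2 (adjusted p = 0.031). Its probe lies at chr13:16118634-16118693 on the plus strand of mm9.

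Bmp2, a BMP known for bone formation and vascular development, was highest in control macrophages. It had 16.97 and 13.3 units in LPS macrophages, 461 and 479 in IL-4 macrophages, 107.7 and 136.01 in colony cells, and 1353 and 1288 in controls. The groups did not overlap, and the order of levels was control, IL-4, colony cells and LPS, with 1 of the 2 LPS arrays well above background. Bmp2 fell by 6.46 on the log2 scale with LPS (SE 0.16, adjusted p = 4.0e-06), 87.8-fold, by 3.45 in colony cells (SE 0.16, adjusted p = 1.3e-05) and by 1.49 with IL-4 (SE 0.16, adjusted p = 0.0030). With normexp the LPS difference was -4.13, and after quantile normalisation the IL-4 call was lost (log2 difference -1.49, adjusted p = 0.091).

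Bmp4, a BMP with roles in mesoderm formation and in the blood stem cell niche, was bright only in colony cells, at 3114 and 3063 units. It had 12.4 and 12.9 units in LPS macrophages, 12.0 and 5.10 in IL-4 macrophages, and 20.1 and 10.4 in controls, with 1 of 2 arrays well above background in each. In colony cells the log2 difference was 7.74 (SE 0.47, adjusted p = 4.0e-05), or 5.01 with normexp. Among the macrophage groups the differences from control were -0.19 with LPS (95% interval -1.37 to 0.99, adjusted p = 0.76) and -0.88 with IL-4 (-2.06 to 0.30, adjusted p = 0.27); with normexp the LPS value was -0.38 and was called (adjusted p = 0.028). That probe starts at base 1738 of the transcript and is 38.3% G or C. The other Bmp4 probe, starting at base 1931 and 15% G or C, was not well above background on any of the 8 arrays, colony cells included.

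**Figure D3:**
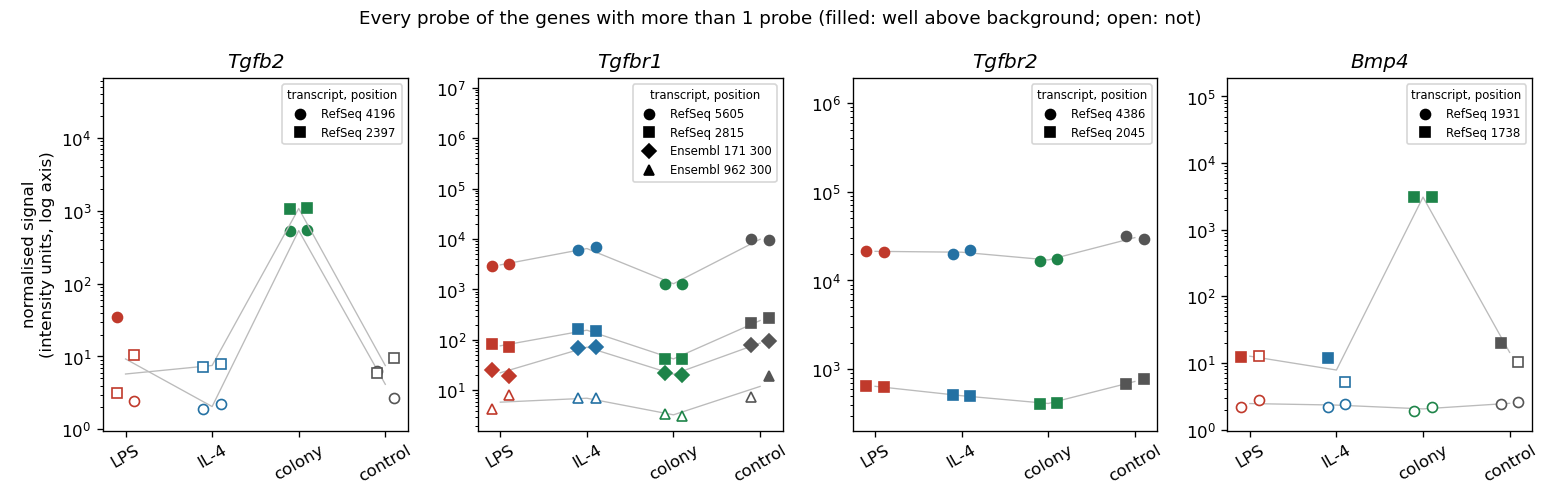
Normalised signal (intensity units, log axis) of every probe of the 4 genes with more than 1 probe, on each array by group; filled points are well above background, open points are not, and lines join the means of log2 values; keys give the position in the transcript, with the last digits of the transcript's name for Ensembl ones. The 2 Tgfb2 probes both stand high in colony cells, both Tgfbr2 probes are lowest in colony cells, and 1 of the 2 Bmp4 probes is dim on every array.

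Tgfbr1, the type I receptor kinase for TGF-beta, was highest in control macrophages and stepped down through IL-4 and LPS macrophages to colony cells. It had 2982 and 3158 units in LPS macrophages, 6170 and 6784 in IL-4 macrophages, 1310 and 1290 in colony cells, and 10117 and 9652 in controls. The groups did not overlap. The log2 differences from control were -1.69 with LPS (SE 0.08, adjusted p = 3.0e-05), -0.61 with IL-4 (SE 0.08, adjusted p = 0.0055) and -2.93 in colony cells (SE 0.08, adjusted p = 2.0e-06).

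Of the 4 Tgfbr1 probes 3 were kept, and all 3 were lower with LPS, by log2 differences of -1.66 to -1.96, and in colony cells, by -2.06 to -2.93. The IL-4 difference was less even over probes. The probe at chr4:47395833-47395892, made for an Ensembl transcript, gave -0.27 with IL-4 (adjusted p = 0.35 over all kept probes) and a log2 difference of -0.10 between colony cells and LPS macrophages (adjusted p = 0.61). The probe that stands for the gene gave -1.24 for that last comparison.

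Tgfbr2, the type II receptor that binds TGF-beta directly, varied least of the 10 genes, with group means within 0.84 on the log2 scale. It had 21420 and 21134 units in LPS macrophages, 19921 and 21755 in IL-4 macrophages, 16678 and 17377 in colony cells, and 31406 and 29367 in controls. Controls were the highest, colony cells the lowest, and LPS and IL-4 macrophages overlapped each other. It fell by 0.51 with LPS (SE 0.08, adjusted p = 0.0028), by 0.54 with IL-4 (SE 0.08, adjusted p = 0.0080) and by 0.84 in colony cells (SE 0.08, adjusted p = 2.3e-04).

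The LPS and IL-4 changes of Tgfbr2 were less firm than that in colony cells. Its other probe, at chr9:115999496-115999555, gave -0.18 with LPS (adjusted p = 0.15 over all kept probes). The IL-4 call was lost without IL-4 replicate 1 (adjusted p = 0.059), after median centring (0.078) and in the deposited table (0.069), with log2 differences of -0.48, -0.52 and -0.51, close to the -0.54 above.

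Smad7, the inhibitory Smad, was called against control in colony cells and in neither stimulated macrophage group. It had 266 and 277 units in LPS macrophages, 242 and 255 in IL-4 macrophages, 1931 and 1997 in colony cells, and 271.3 and 271.7 in controls. Colony cells stood apart, LPS values lay on both sides of the controls, and IL-4 values lay just below them. The log2 difference in colony cells was 2.85 (SE 0.07, adjusted p = 1.3e-06). With LPS it was 0.00 (95% interval -0.17 to 0.17, adjusted p = 0.99) and with IL-4 -0.13 (-0.30 to 0.04, adjusted p = 0.25).

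Tgfbi, the TGF-beta-induced adhesion protein, was the only member with a rise in LPS macrophages and a fall in colony cells. It had 201752 and 237514 units in LPS macrophages, 22776 and 23863 in IL-4 macrophages, 7237 and 7194 in colony cells, and 29080 and 29087 in controls. No pair of groups overlapped. It rose by 2.91 with LPS (SE 0.09, adjusted p = 8.9e-06), 7.53-fold, and fell by 2.01 in colony cells (SE 0.09, adjusted p = 1.4e-05).

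With IL-4 the log2 difference of Tgfbi was -0.32 (95% interval -0.55 to -0.08, adjusted p = 0.072). It passed the threshold with an intensity trend in the variance (adjusted p = 0.025), with normexp (0.040), after quantile normalisation (0.0072) and where only probes well above background on all 8 arrays were kept (0.046).

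Markers of several cell types also differed between colony cells and controls, not all in the same direction. The 10 macrophage markers summed to 109105 to 111751 units in colony cells and 1360810 to 1365000 in controls. Of these 10, 9 were lower and Itgam was higher, and 8 of 8 pan-leukocyte markers were lower. Fibroblast markers summed to 194829 to 203241 units in colony cells and 371 to 453 in controls (8 of 10 higher, Col1a2 lower, and 10 well above background in colony cells against 5 in controls).

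Mesothelial markers summed to 250486 to 259864 units in colony cells and 36.6 to 49.5 in controls, 8 of 8 higher. Of these, 8 were well above background in colony cells and 2 in controls, and markers dim in controls could hardly be called lower. Endothelial markers summed to 13193 to 13279 units in colony cells and 21315 to 24341 in controls. Of 8 tested, 3 were higher (Esam, at least 455-fold, Tek and Robo4) and 4 lower (Cdh5, Kdr, Vwf and Cldn5). Of 10 endothelial markers 7 were well above background in colony cells, and the endothelial cadherin Cdh5, Tie1 and Emcn were not. Mast cell markers summed to 3900 to 3912 units in colony cells and 362 to 469 in controls, 5 of 6 higher, with 6 well above background in colony cells and 2 in controls. Neutrophil markers summed to 28870 to 29453 in colony cells and 30253 to 36359 in controls, with 3 of 8 higher (Ly6g, Camp and Mpo), Elane lower and 4 not called.

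The part of these cell types in the values of the 10 genes was not tested. In bulk RNA, fewer cells of a type and less RNA per cell cannot be told apart. The median over all genes was -0.35 in colony cells against control, and relative to it Tgfb1 was at -2.47, Tgfbr2 at -0.48 and Smad7 at 3.21.

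**Figure D4:**
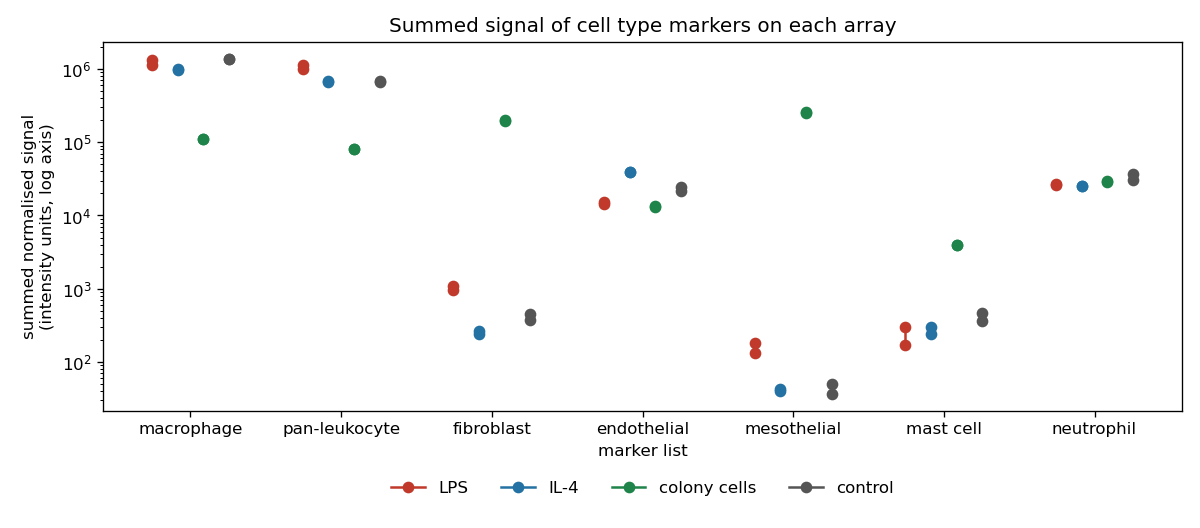
Summed normalised signal (intensity units, log axis) of 7 lists of cell type markers on each array, by group. Macrophage and pan-leukocyte sums are lowest in colony cells, and fibroblast, mesothelial and mast cell sums highest there.

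Within LPS macrophages the macrophage markers summed to 1145550 to 1317420 units, with 5 of 10 higher and 5 lower than in controls. The fibroblast markers summed to 963 to 1085 units with LPS, against 371 to 453 in controls, with 3 of 10 higher (Dcn, Lum and Pdgfrb), Col1a1 and Col1a2 lower and 5 not called. The mesothelial markers summed to 133 to 180 units with LPS, against 36.6 to 49.5 in controls, and 1 of 8 was called, Upk3b, at 95.6 and 88.3 units. In IL-4 macrophages the macrophage markers summed to 981296 to 1011740 units, 8 of 10 lower. The endothelial list summed to 38922 to 39840 with IL-4, of which Vwf made up 27846 and 26143 (8937 and 10338 in controls). Of 8 tested, Vwf was higher, Tek was called lower without being well above background in either group, and 6 were not called.

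The other genes of the pathway were described by lists of ligands, receptors, latency genes, antagonists, Smads with their regulators, and targets. Beside each list stand the shares of all genes called higher and lower. These were 28.9% and 25.8% with LPS, 9.87% and 9.18% with IL-4, and 24.7% and 46.7% in colony cells. Of 22 other ligands tested (28 listed), 4 rose and 5 fell with LPS, 0 rose and 3 fell with IL-4 (at an unadjusted p under 0.05, 0 and 5), and 8 rose and 8 fell in colony cells. The list medians were 0.35 (0.041 with genes dim in a group set at their bound, or at 0 where none can be given), -0.11 and 0.16, against 0.07, -0.01 and -0.35 for all genes. With LPS the growth differentiation factor Gdf15, a stress-induced ligand, fell by 2.57 (SE 0.09, adjusted p = 1.3e-05), the oocyte factor Gdf9 fell by 1.73, and the inhibin subunit gene Inhbc was at least 1.85-fold lower. With IL-4 the called ligands were Lefty1 (-0.77), Gdf9 (-0.47) and Gdf15 (-0.46).

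In colony cells the activin beta B gene Inhbb, a beta subunit gene like Inhba, had 5289 and 4943 units against 19.4 and 14.98 in controls. Its log2 difference was 8.23 (SE 0.36, adjusted p = 1.1e-05). Gdf6 was at least 141-fold higher and Bmp6, known as the main BMP of iron sensing in the liver, at least 46.4-fold higher, both not well above background in controls.

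Among 13 other receptors and co-receptors tested (15 listed), 3 rose and 4 fell with LPS and 1 rose and 3 fell with IL-4. In colony cells 5 rose and 7 fell. The medians were 0.08, -0.14 and -0.29, against 0.07, -0.01 and -0.35 for all genes. The co-receptor Tgfbr3, which presents TGF-beta2 to TGFBR2, had 3998 and 4025 units in colony cells against 68.3 and 77.5 in controls, a log2 difference of 5.79 (SE 0.40, adjusted p = 6.4e-05). With LPS Tgfbr3 fell by 2.83, with 1 of 2 LPS arrays well above background. The BMP type I receptor Bmpr1a rose by 5.56 in colony cells and fell by 1.45 with LPS, and Bmpr1b in colony cells was higher by at least 15.2-fold. The activin receptor Acvr2b fell by 2.17 with LPS and by 0.77 with IL-4. With IL-4 Acvr2a fell by 0.51 and Acvrl1 rose by 0.66.

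Of 11 latency and activation genes tested (12 listed), 4 rose and 5 fell with LPS and 3 rose and 2 fell with IL-4. In colony cells 6 rose and 3 fell. The medians were 0.15, 0.07 and 1.59, against 0.07, -0.01 and -0.35 for all genes. With IL-4 the clearest change was in Lrrc32, which codes for GARP, the cell surface anchor of latent TGF-beta. It had 6592 and 6789 units in IL-4 macrophages against 157.3 and 148.8 in controls, a rise of 5.45 on the log2 scale (SE 0.10, adjusted p = 1.2e-05). LPS macrophages had 72.0 and 84.3 units of Lrrc32 and colony cells 556 and 521. Thbs1, a matrix protein known to activate latent TGF-beta, fell by 2.05 with IL-4, and Itgb8 passed the test with IL-4 although it was not well above background in either group.

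With LPS the integrin subunit gene Itgb8, part of a receptor that activates latent TGF-beta, was at least 4.76-fold higher and the fibrillin gene Fbn1 at least 5.72-fold higher, while the latent TGF-beta binding protein gene Ltbp3 fell 2.83-fold. In colony cells Fbn1 was at least 180.4-fold and Itgb8 at least 2.82-fold higher, and Ltbp4 rose by 3.80.

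Of 11 extracellular antagonists tested in colony cells (12 listed), 8 rose and 0 fell (0 also at an unadjusted p under 0.05). Of all genes 24.7% were called higher and 46.7% lower. Among the 11 antagonists, 3 were not well above background in controls and could hardly be called lower, so the counts do not compare evenly with those shares. The list was also chosen with earlier results known. The median of the 11 was 3.71 against -0.35 for all genes, or 3.59 with genes dim in a group set at their bound. With LPS 2 rose and 3 fell, and with IL-4 1 rose and 3 fell (medians -0.20 and -0.49, or -0.12 and -0.046 with bounds). The activin antagonist Fst, follistatin, had 54.0 and 61.1 units in LPS macrophages, 1360 and 1422 in colony cells, and 2.04 and 4.02 in controls, where it was not well above background. It was at least 5.89-fold higher with LPS (adjusted p = 1.4e-04) and at least 142.5-fold higher in colony cells (adjusted p = 4.7e-06), in both groups beside a rise of Inhba. The BMP-binding protein gene Bmper in colony cells was higher by at least 488-fold, at 4869 and 4660 units against 4.65 and 2.76 in controls. Fstl1 rose by 8.77 in colony cells and fell by 1.58 with LPS and by 0.93 with IL-4. Grem1, a BMP antagonist, fell by 1.14 with LPS, with 1 of 2 LPS arrays well above background, and was at least 1.96-fold lower with IL-4, where Fstl3 fell by 0.85.

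**Figure D5:**
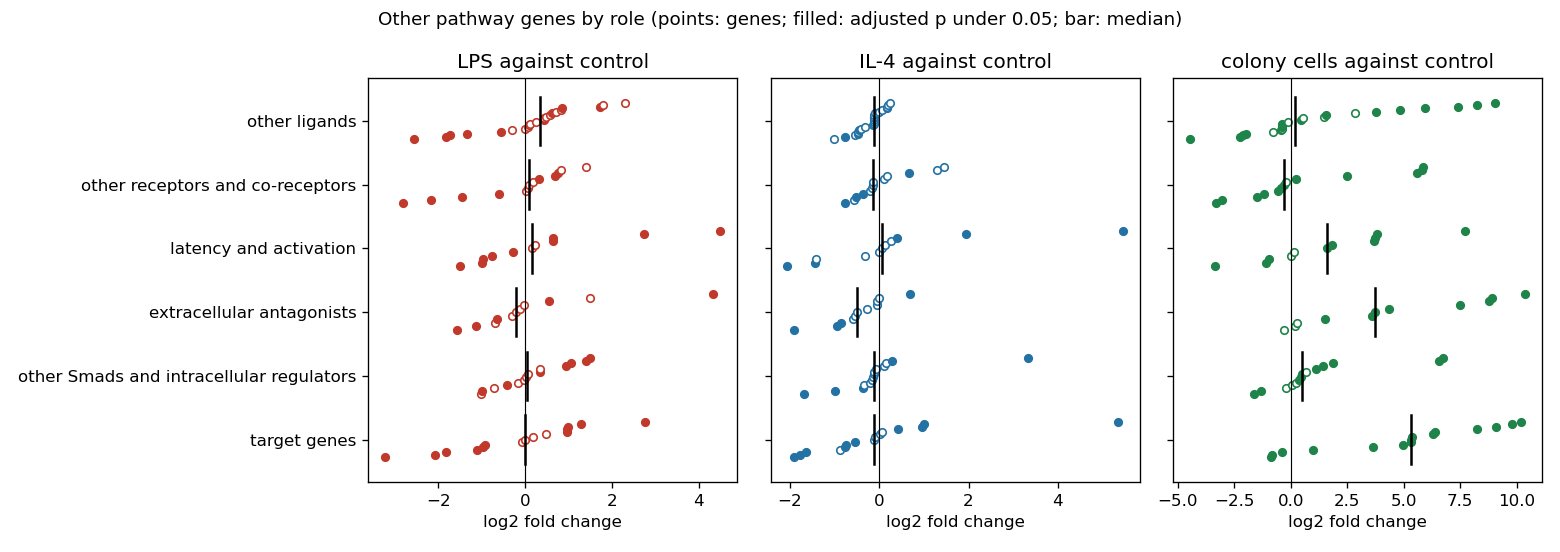
Log2 fold changes against control macrophages of the tested genes in the 6 pathway lists, for LPS, IL-4 and colony cells; points are genes, filled where adjusted p was under 0.05, marks are list medians, genes not well above background in a group are drawn at fitted values, and each panel has its own axis. The antagonist and target medians in colony cells are at 3.71 and 5.33, and the IL-4 medians lie between -0.49 and 0.07.

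Of 14 other Smads and intracellular regulators tested (15 listed), 5 rose and 2 fell with LPS and 2 rose and 3 fell with IL-4. In colony cells 8 rose and 2 fell. The medians were 0.04, -0.12 and 0.48, against 0.07, -0.01 and -0.35 for all genes. The other inhibitory Smad, Smad6, rose by 1.49 with LPS (SE 0.09, adjusted p = 8.6e-05) and by 1.88 in colony cells, and fell by 0.98 with IL-4. With LPS the corepressor Skil rose by 1.41 and the BMP-responsive Smad1 by 1.07. Smad3, which carries TGF-beta and activin signals, fell by 1.67 with IL-4 (SE 0.08, adjusted p = 2.0e-04), to 527 and 566 units against 1764 and 1716 in controls. Pmepa1, a TGF-beta target that restrains Smads, had 170.5 and 154.9 units in IL-4 macrophages, 1763 and 1663 in colony cells, and 11.5 and 22.6 in controls, where 1 of 2 arrays was well above background. It rose by 3.33 with IL-4 (SE 0.56, adjusted p = 0.014) and by 6.73 in colony cells. In colony cells Smad9 was higher by at least 21.5-fold.

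Of 15 target genes tested (16 listed), 5 rose and 6 fell with LPS and 4 rose and 6 fell with IL-4. In colony cells 12 rose and 3 fell, where 24.7% of all genes were called higher and 46.7% lower. Among the 15 targets, 3 were not well above background in controls and could hardly be called lower. The counts therefore do not compare evenly with those shares. The medians were 0.00, -0.12 and 5.33 (the last 5.31 with bounds), against 0.07, -0.01 and -0.35 for all genes. Id3, a direct BMP target, fell by 3.24 with LPS (SE 0.07, adjusted p = 3.2e-06), to 1169 and 1201 units against 11667 and 10687 in controls. Ccn2, a connective tissue growth factor, fell by 2.07 with LPS and by 1.78 with IL-4. Fibronectin, Fn1, had 3746 and 3685 units in IL-4 macrophages, 104716 and 106768 in colony cells, and 77.9 and 106.9 in controls, rising by 5.35 with IL-4 (SE 0.18, adjusted p = 7.7e-05) and by 10.18 in colony cells. In colony cells the collagen gene Col1a1, also on the fibroblast list, rose by 9.06, and Snai2, a transcription factor of mesenchymal cells, was at least 240-fold higher. The collagen gene Col1a2, also on both lists, was lower there, with a log2 difference of -0.90 (SE 0.14, adjusted p = 0.0019).

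Against IL-4 macrophages, 10 of the 10 genes were called in colony cells (5 higher, 5 lower), where 71.7% of all genes were (24.3% higher, 47.4% lower). Tgfb2 and Bmp4, kept through colony cells alone, could hardly be called lower here either. Bmp4 (8.62, or 5.31 with normexp), Inhba (8.45, or 6.70), Tgfb3 (6.33, or 5.40) and Smad7 (2.98) were higher in colony cells, and Tgfb2 was at least 114.5-fold higher, with a log2 difference of 3.85 under normexp, below that bound. Tgfb1 (-2.95), Tgfbr1 (-2.32), Bmp2 (-1.96), Tgfbi (-1.69) and Tgfbr2 (-0.29) were lower. Bmp4 rested on a dim IL-4 group and was 9.24 without IL-4 replicate 1 and 8.00 without IL-4 replicate 2.

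Against LPS macrophages, 10 of 10 were called in colony cells (6 higher, 4 lower), where 76.5% of all genes were (26.8% higher, 49.7% lower). The same limit holds for Tgfb2 and Bmp4, which were kept through colony cells alone. The sixth gene on the higher side was Bmp2, which was 3.01 higher on the log2 scale (SE 0.16, adjusted p = 1.9e-05), or 1.21 with normexp, while it was lower than in control or IL-4 macrophages. Bmp4 (7.93, or 5.39 with normexp), Tgfb3 (6.49, or 5.54), Smad7 (2.85) and Inhba (2.77) were higher in colony cells too. The probe used for Tgfb2 was not well above background on either LPS array. For that probe alone, colony cells exceeded LPS macrophages by 112.9-fold or more. Under normexp its log2 difference was 3.95, below that bound. The other Tgfb2 probe, well above background on 1 LPS array, had a log2 difference of 5.85 (adjusted p = 0.0062 over all kept probes). Tgfbi (-4.92, or -4.24 after quantile normalisation), Tgfb1 (-2.65), Tgfbr1 (-1.24) and Tgfbr2 (-0.32) were lower.

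The small differences of Tgfbr2 did not keep their direction. Colony cells were lower by 0.29 than IL-4 macrophages (adjusted p = 0.018) and by 0.32 than LPS macrophages (adjusted p = 0.011), but after quantile normalisation Tgfbr2 was higher by 0.26 and 0.40 (adjusted p = 0.013 and 0.0020). Relative to the median of all genes the 2 differences were 0.08 and 0.10. In each of the 2 comparisons, 4 of 13 alternatives reversed the direction or lost the call. Against IL-4 macrophages the call was lost without colony cell replicate 1, colony cell replicate 2 or IL-4 replicate 2. Against LPS macrophages it was lost without colony cell replicate 1 and in other settings.

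Between the stimuli, 4 of the 10 genes were called (2 higher and 2 lower in IL-4 than in LPS macrophages), where 52.6% of all genes were (25.8% higher, 26.8% lower). The share of calls on the higher side was 49.0%, and 63.8% after median centring and 66.2% in the deposited table. Bmp2 was higher with IL-4 by 4.97 (SE 0.16, adjusted p = 7.9e-06), or 2.83 with normexp, and Tgfbr1 by 1.08 (SE 0.08, adjusted p = 1.6e-04). Lower with IL-4 were Inhba, with a log2 difference of -5.68 (SE 0.26, adjusted p = 2.8e-05), or -3.96 with normexp, and Tgfbi, with -3.23 (SE 0.09, adjusted p = 5.7e-06). For Tgfb1 the difference was 0.30 (95% interval -0.09 to 0.69, adjusted p = 0.16) and for Smad7 -0.13 (-0.30 to 0.04, adjusted p = 0.15).

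The spread of the 10 genes over the 4 groups can be set beside that of all genes. The log2 range of group means was 8.62 for Bmp4, 8.49 for Inhba, 6.49 for Tgfb3 and 6.46 for Bmp2, which placed them at the 96.4th to 98.8th percentile of genes tested. The ranges of Bmp4 and Bmp2 reach down to groups with 1 of 2 arrays well above background. No range is given for Tgfb2, since the probe used for it was not well above background in any macrophage group. Tgfbi spanned 4.92 and Smad7, Tgfb1 and Tgfbr1 between 2.93 and 2.98. Tgfbr2 spanned 0.84, at the 28.2th percentile. The 10 genes were chosen with earlier results of these data known, so the percentiles describe them and test nothing.

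The genes of most like pattern were taken as those with the smallest root mean square log2 difference from a member's 4 centred group means, the 2 nearest being named. They were Tenm3 and Synpr for Smad7 (0.010 and 0.014), Hgsnat and Tmem174 for Tgfb1 (0.030 and 0.031), Camsap3 and Slc22a21 for Tgfbr2 (0.029 and 0.037), and Acsm1 and Clec2i for Tgfbr1 (0.047 and 0.082). For Bmp4 they were Gpx8 and Slit2 (0.077 and 0.079), for Tgfb2, whose macrophage values were dim, Parm1 and Cdo1 (0.079 and 0.12), and for Tgfb3 Cst9 and Calhm5 (0.12 and 0.16). Tgfbi had H2-T24 and Calcr (0.16 and 0.20), Inhba had Mgarp and Cstdc5 (0.30 and 0.31), and Bmp2 had Gm1673 and Rasgef1a (0.45 and 0.50), the farthest of the 10. With 4 group means from 8 arrays and 26504 genes, close neighbours are a description of these arrays.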

How the data were processed

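Spot signals are intensity values that, per the file headers, were background-subtracted and detrended by Agilent Feature Extraction 10.7.3.1, without scaling between arrays. Other columns, per the file headers, mark spots as well above background, uneven or outlying. The deposited value table is on the log2 scale: its columns differed from the log2 scanner signals by 1 constant per array (r across probes at least 0.9999), with medians of 2.87 and 2.53 (LPS), 2.93 and 2.93 (IL-4), 2.91 and 2.88 (colony cells) and 2.89 and 2.96 (control). Its centring rule is not given in the sources used here. The submitters' processing notes list Partek 6.4 and RMA, with no role given.

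Uneven and outlying spots were left out, log2 signals were set relative to each array's 75th percentile, and spots of a probe were averaged. Probes were kept if they exceeded background clearly on each array of 1 group or more, and the kept probe with the highest mean stood for its gene (39411 probes, 26504 genes). Probe names were updated through RefSeq transcripts, symbols and synonyms. The comparisons used 1 limma model of 4 group means (limma 3.58.1, R 4.3.3). With 2 arrays a group the smallest two-sided exact permutation p is 0.333, so calls rest on the model. It takes each gene's own spread, pooled over the 4 groups (4 residual degrees of freedom). That spread is moderated by the spread of all genes (1.57 prior degrees of freedom). Where a group had no probe of a gene well above background, the fold is a bound ("at least"). For it, the dim group was set no lower than the dimmest signal counted as above background on each array. Such a bound holds for this background subtraction only: with normexp the log2 difference of Tgfb2 in colony cells against control, 3.63, lay below its bound. The 8 arrays shared 1 slide and 1 scan, and their number limits the precision. The members and the lists were chosen with earlier results of these data known. From each list, up to 3 called genes with the largest change in each comparison with control are named, along with the 2 genes of most like pattern per member. A target gene that this rule names is not reported here. The fit was tested on simulated data. Alternatives were normexp background correction, quantile normalisation, median centring, the deposited table, other filters, the mean of all kept probes, an intensity trend, a replicate block and leaving out each array.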

Additional observations from a re-analysis of the deposited data

How the results depend on the processing

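Of 762 recomputed log2 differences of the 10 genes, 712 kept their direction and their side of the threshold, 26 changed direction, and of the others 10 lost a call and 14 gained one. The number of genes called with IL-4 was 5049, and 2839 in the deposited table, 2667 after median centring and 2004 to 3710 with 1 array left out (2004 when IL-4 replicate 2 was dropped, 2169 when it was IL-4 replicate 1, and 3086 when it was control replicate 2). With 1 array left out the genes called numbered 16464 to 17620 in colony cells against control, 16302 to 16803 against IL-4, 17919 to 19755 against LPS, 12617 to 14416 for LPS against control and 10529 to 13751 for IL-4 against LPS. The share of calls that were higher with LPS than in control was 52.9%, and 42.5% with normexp, 44.1% after quantile normalisation, 39.9% after median centring and 38.3% in the deposited table; for IL-4 against LPS it was 49.0%, and 63.8% and 66.2% under the last 2.

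Direction changed, cause not tested, in these values, which mostly concern dim or nearly equal groups. For IL-4 against LPS, Bmp4 was 0.083 with normexp and 0.071 after quantile normalisation, Smad7 was 0.089 in the deposited table and 0.079 after median centring, Tgfbr2 was 0.19, 0.18 and 0.14 (deposited table, median centring, quantile normalisation) and -0.095 to 0.032 with 1 array left out, and Tgfb2 was -0.89 as the mean of its probes and -0.47 to 1.24 with 1 array left out. For LPS against control, Bmp4 was -0.67 to 0.29 with 1 array left out, Smad7 was -0.19 (deposited table), -0.18 (median centring), -0.080 (normexp) and -0.027 to 0.030 with 1 array left out, and Tgfb2 was 0.39 as the mean of its probes and -1.24 to 0.47 with 1 array left out. For IL-4 against control, Inhba was -0.18 with normexp and -0.39 to 0.46 with 1 array left out, Tgfb1 was -0.015 to 0.27 with 1 array left out, and Tgfb2 -0.50 (mean of probes), -0.22 (normexp) and -0.33 to 0.34 with 1 array left out. Tgfbr2 in colony cells was 0.26 against IL-4 and 0.40 against LPS after quantile normalisation.

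Replicate numbers did not pair the samples: deviations of replicate 1 from the group means correlated at -0.16 to 0.05 across genes between groups. With the replicate block the calls numbered 3863 for IL-4 against control and 13716 for LPS against control, and members called were 6, 4 and 10 for LPS, IL-4 and colony cells against control, as without it. A slide block was not run, since there was 1 slide. Signals within a few units of background limit Tgfb2, Bmp4, Inhba and Bmp2, whose folds shrink with normexp.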
